A study of Mus musculus with 6 samples.

Results

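The transcripts described here lost most of their array signal within 6 h of transcriptional arrest and stayed low at 12 h, both in CNOT3-depleted (CNOT3KD) and in control mouse embryonic fibroblasts (MEFs). They were chosen by their readout. A probe set was a member where its signal was at least 800 in both 0 h arrays and each culture, CNOT3KD and control, had at most 20% of its own 0 h signal left at 6 h and again at 12 h. Of 45037 probe sets, 7464 reached 800 in both 0 h arrays and 119 of these met the rule, which is 1.59% of the bright ones. Among the 119 members, 105 named 89 genes, 11 had no gene name in the platform annotation and 3 matched several genes and are not named. The percentages left in both cultures selected the members, so they are given as a description and carry no test.

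CNOT3KD MEFs were primary fibroblasts homozygous for a floxed CNOT3 allele (CNOT3 loxP/loxP) that received Cre recombinase through a retrovirus, and control MEFs were fibroblasts with the same floxed alleles given mock retrovirus. In the labels the genotype of the control is given as wild type. Both cultures were selected with puromycin for 2 days and harvested untreated (0 h) or after treatment with actinomycin D (Act. D), an inhibitor of RNA synthesis, for 6 h or 12 h. Each of the 6 conditions had 1 GeneChip array, so no difference below could be set against a spread between replicates, and this number of arrays limits the precision. The cultures were bulk populations in which any cell that escaped recombination was measured with the rest, and fewer cells of a kind and less RNA per cell cannot be told apart. Values are MAS5 signals on a linear scale, set by the software to a common average on each array, and were not rescaled.

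Cnot3 itself was measured by 2 probe sets. One had signals of 239.6, 128 and 82.9 at 0, 6 and 12 h in CNOT3KD MEFs, against 436, 193 and 198 in control MEFs, which is 1.82-fold lower at 0 h. The other had 227, 90.7 and 92.6 in CNOT3KD MEFs, against 204, 201 and 279 in control MEFs, and so was not lower at 0 h. The arrays therefore hold a culture with reduced signal at 1 of its 2 Cnot3 probe sets, and whether the members can decay with no CNOT3 at all was not measured. For MEFs given Cre by retrovirus, the paper reports depletion of CNOT3 protein by immunoblot and significantly lower cnot3 mRNA by quantitative PCR. All 17 fibroblast and matrix markers on the array were at or above the array median in both 0 h arrays. Summed leukocyte markers were at 3780 in CNOT3KD MEFs and 2556 in control MEFs at 0 h, with 8 of 13 and 7 of 13 above the array median, and summed epithelial markers were at 2490 and 1455. Their part in the results was not tested. The trimmed mean of the 6 arrays lay between 494 and 497.

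The lifetime of an mRNA is set mainly by how quickly its poly(A) tail is shortened, a step carried out largely by the CCR4-NOT deadenylase, of which CNOT3 is a subunit without enzyme activity of its own. Transcription factors of the immediate-early class, inhibitors that feed back on signalling pathways and regulators of cell survival are known for short-lived mRNAs, so that their levels follow the rate of synthesis closely. Decay by decapping, by the exosome or by endonuclease cleavage can also remove an mRNA. Nuclear non-coding RNAs are broken down by other enzymes.

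At 6 h a median of 10.4% of the 0 h signal was left in CNOT3KD MEFs and 7.39% in control MEFs. At 12 h the medians were 7.06% and 8.66%. The single members ranged between 1.46% and 19.98% at 6 h and between 1.001% and 16.6% at 12 h in CNOT3KD MEFs, against 0.673% to 19.995% and 0.786% to 19.996% in control MEFs. Over all probe sets with a signal of at least 800, medians of 108% at 6 h and 110% at 12 h were left in CNOT3KD MEFs, and 113% and 97.6% in control MEFs. Each array was set to a common average, so a percentage left is relative to the other transcripts on that array and is no absolute loss.

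**Figure D1:**
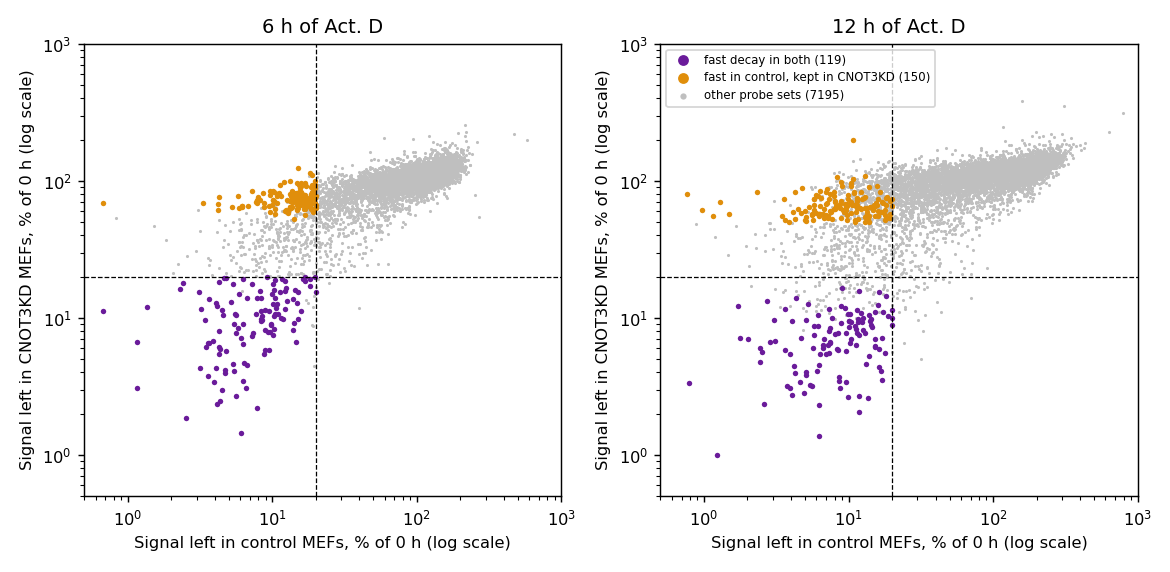
Percent of the 0 h signal left in CNOT3KD MEFs (y axis, log scale) against control MEFs (x axis, log scale) with 6 h of Act. D on the left and 12 h on the right, 1 point per probe set with signal of at least 800 at 0 h. By the rule the 119 members lie below the horizontal and left of the vertical dashed line, both at 20%. The 150 probe sets kept at 50% or more in CNOT3KD MEFs lie above the horizontal line and left of the vertical one.

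A minority of the transcripts that decayed fast in control MEFs also did so in CNOT3KD MEFs. Of 550 probe sets with at most 20% left at both times in control MEFs, the 119 members made up 21.6%, another 150 (27.3%) kept at least 50% at both times in CNOT3KD MEFs, and 281 lay in between. Seen from the other culture, 131 probe sets had at most 20% left at both times in CNOT3KD MEFs, and the members made up 90.8% of these. The remaining 12 had more than 20% left at a time in control MEFs, and 0 probe sets were fast in CNOT3KD MEFs and kept at 50% or more in control MEFs. The 150 kept probe sets had medians of 73.4% and 64.1% left at 6 h and 12 h in CNOT3KD MEFs, and of 15% and 9.70% in control MEFs. At 6 h in control MEFs the median of the members, 7.39%, was below that of the kept probe sets.

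Between 6 h and 12 h the signal fell further in CNOT3KD MEFs for 97 of the 119 members and in control MEFs for 51 of them. Of all probe sets at 800 or more, 48.6% were lower at 12 h than at 6 h in CNOT3KD MEFs and 55.3% in control MEFs. For most members in control MEFs the 12 h value was thus at or above the 6 h value, on arrays whose medians over all probe sets were 54.9 at 6 h and 62.1 at 12 h. Low signals limit how finely these percentages can be read. Under Act. D 41 of 119 members were under the array median in at least 1 array, 3 were under it in all 4, and 2 were under the 25th percentile in at least 1.

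Among the members just inside the limit of 20%, the brightest probe set of Nfkbia had 19.996% left in its highest array, Mllt10 had 19.995% and Zfp462 had 19.98%. Just outside it were Pprc1, Zfp9 and Chd2, each with 20.1% left in its highest array. Just inside the minimum of 800 were Wdr20 with 802.6, Has2 with 806 and Zfp449 with 817 in the dimmer 0 h array. Just outside were a predicted gene, LOC102631979, with 799, an unnamed probe set with 778 and Zscan26 with 778.

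Immediate-early factors are the genes switched on first when a cell meets a growth factor or stress. The list read for them also held antiproliferative genes of the BTG and TOB family. Its 5 genes with a member were Btg1, Fosl2, Jun, Myc and Tob2. Of 15 list genes with a signal of at least 800, 5 had a member probe set (33.3%), against 1.86% of all 4793 genes at that signal. A probe set fast in control MEFs and kept in CNOT3KD MEFs was found for 0 of the 15. Of all genes 2.57% had one, so that count is near the share of all. Only 6 of the 15 had a probe set fast in control MEFs, so the others could not count as kept. At its brightest probe set Jund had 83.2% and 80.9% left in CNOT3KD MEFs, against 41.7% and 28.0% in control MEFs. Srf had 79.2% and 71.3% in CNOT3KD MEFs, against 74.4% and 49.2% in control MEFs. Btg2 had 31.4% and 20.9% in CNOT3KD MEFs, against 48.3% and 70.0% in control MEFs. Fosl1 of this list was fast in control MEFs, with 6.93% and 7.98% left. In CNOT3KD MEFs it had 41.8% and 42.6% left and so lay between the members and the kept probe sets. The lists were chosen with earlier results of these data known. The counts over this list and those below stand as description and carry no test. Btg1, an antiproliferative protein that binds deadenylases of the CCR4-NOT complex, was the brightest member at 0 h in CNOT3KD MEFs. It had signals of 7437, 350.0 and 195 at 0, 6 and 12 h in CNOT3KD MEFs, against 5302, 336 and 523 in control MEFs. Its second member probe set had 5636, 231 and 172 in CNOT3KD MEFs, against 4475, 243 and 389 in control MEFs. At both probe sets the 0 h and 12 h values differed between the cultures in opposite directions, CNOT3KD MEFs being higher at 0 h and lower at 12 h.

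Fosl2, a FOS-related subunit of the AP-1 transcription factor, had 3816, 235 and 109 in CNOT3KD MEFs, against 4640.4, 199.96 and 229 in control MEFs. Myc, the growth-promoting transcription factor, had 1413, 101 and 139 in CNOT3KD MEFs, against 1862, 113 and 216 in control MEFs. Both had under 12% left in every Act. D array. Jun, the AP-1 partner of the FOS proteins, had 1048, 144 and 151 in CNOT3KD MEFs, against 1811, 251 and 330.3 in control MEFs at its member probe set. Its brighter probe set was no member and had 13.4% and 10.6% left in CNOT3KD MEFs, against 20.01% and 34.0% in control MEFs. Tob2, a relative of Btg1, had 1417, 112 and 129 in CNOT3KD MEFs, against 1698, 163 and 149.7 in control MEFs at its brighter member probe set. Its 2 other probe sets with a signal of at least 100 were no members and kept between 30.5% and 99.2%.

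Kruppel-like factors, a family of zinc finger transcription factors, had members for 3 of 8 genes (37.5%). Klf3 and Klf4 were also fast in control MEFs and were no members. In CNOT3KD MEFs Klf3 had 43.9% and 41.9% left, and Klf4 had 48.8% and 28.6%. Klf9, a factor induced by glucocorticoid and thyroid hormones, had 3 member probe sets. The brightest had signals of 3581, 353 and 116 in CNOT3KD MEFs, against 3607, 303 and 194 in control MEFs. The second had 3449, 225 and 136 in CNOT3KD MEFs, against 3208, 115 and 137 in control MEFs. The third had 1969.9, 196 and 138 in CNOT3KD MEFs, against 1875, 216 and 196 in control MEFs. At 0 h the cultures differed by at most 1.08-fold at each of the 3, and none of the 12 percentages left was above 11.5%. Klf6 had more left at 6 h, with 4199.8, 803 and 466 in CNOT3KD MEFs, against 4115, 478 and 629 in control MEFs. A further Klf6 probe set, with 2463 in CNOT3KD MEFs and 2494 in control MEFs at 0 h, was no member. It had 28.3% and 15.7% left in CNOT3KD MEFs, against 17.9% and 23.9% in control MEFs. Klf2, which restrains inflammatory genes, had 1183, 114 and 104 in CNOT3KD MEFs, against 939, 32.2 and 54.4 in control MEFs.

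Klf9, Fbxo30 and Zfp292 were named in the study as short-lived with and without CNOT3 from its microarray results, so finding them here is no independent evidence. The study also followed their decay by quantitative PCR and reported similar half-lives with and without CNOT3 depletion. Fbxo30, which carries substrates to an SCF ubiquitin ligase, had 1049, 95.7 and 74.6 in CNOT3KD MEFs, against 941, 133 and 159.7 in control MEFs. Zfp292, a zinc finger protein, was just under the minimum of 800 at its brightest probe set and so was no member. That probe set had 784, 69.7 and 86.1 in CNOT3KD MEFs, against 749, 78.6 and 75.5 in control MEFs, with between 8.89% and 10.98% left in all 4 Act. D arrays.

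Mesenchymal regulators included the gene with the least signal left over the 4 Act. D arrays at its brightest member probe set. This was Snai2, the zinc finger repressor of epithelial genes also called Slug, whose member probe set was the brightest of the named members over both 0 h arrays, with 6949.8, 462 and 234 in CNOT3KD MEFs, against 7337, 85.4 and 57.7 in control MEFs. In control MEFs 1.16% and 0.786% were left, and in CNOT3KD MEFs 6.65% and 3.37%. Its second member probe set had 1592, 179 and 76.1 in CNOT3KD MEFs, against 1814, 12.2 and 44.1 in control MEFs, where the 6 h value lay under the 25th percentile of the array. Foxc2, a forkhead factor of mesenchymal and vascular development, had 1941, 224 and 139 in CNOT3KD MEFs, against 1671, 53.9 and 29.7 in control MEFs. Snai2 and Foxc2 were members at 20% in both cultures and had more left in CNOT3KD MEFs at both times. These were 2 of 19 homeobox and mesenchymal factors (10.5%).

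**Figure D2:**
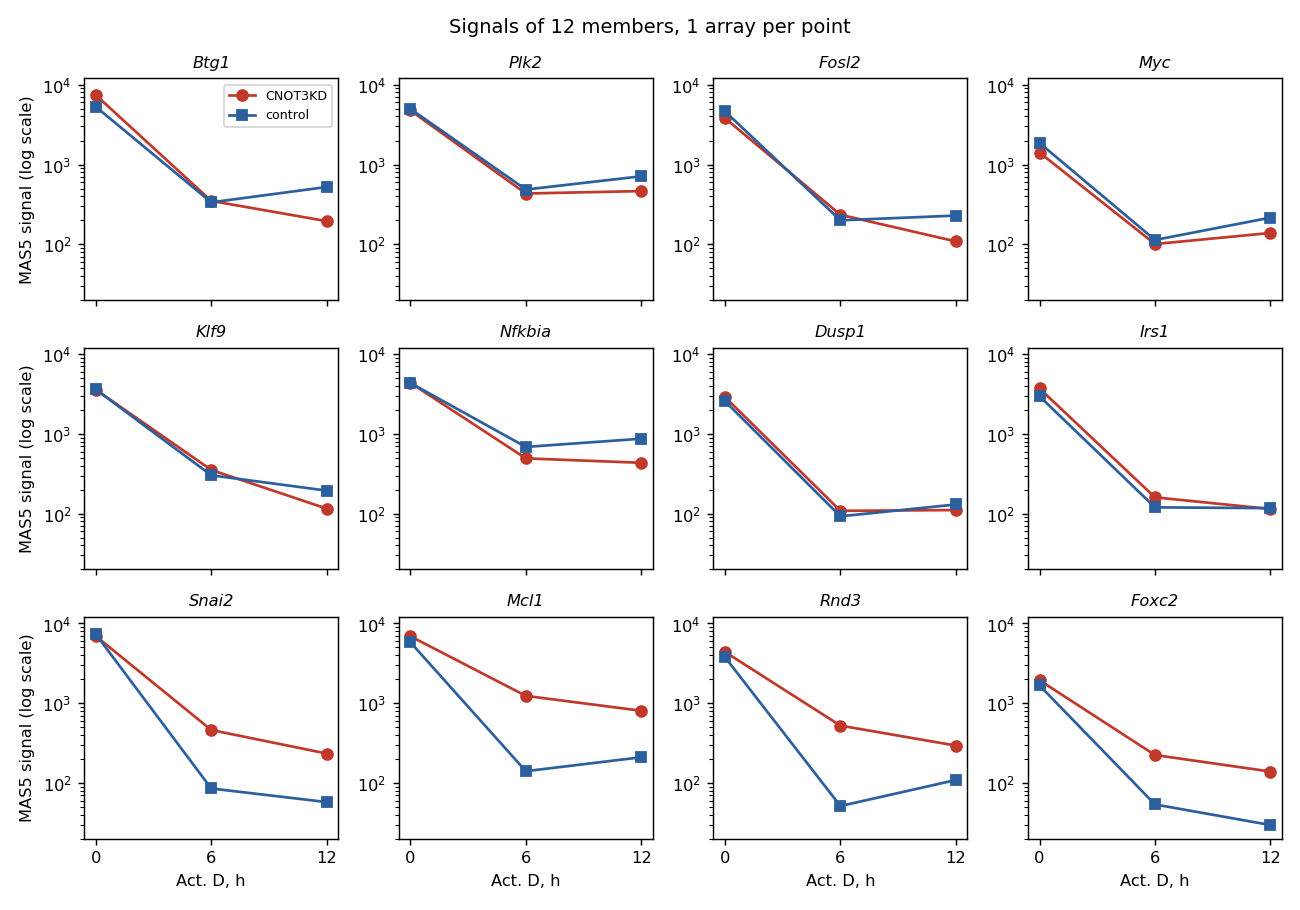
MAS5 signal (y axis, log scale) against hours of Act. D for 12 members at their brightest probe set, CNOT3KD MEFs as circles and control MEFs as squares, 1 array per point and no error bars. For Btg1, Plk2, Fosl2, Myc, Klf9, Nfkbia, Dusp1 and Irs1 the curves run close together at 6 h, while for Snai2, Mcl1, Rnd3 and Foxc2 the CNOT3KD points lie above the control points at 6 h and 12 h.

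Feedback inhibitors of signalling were a further class. The MAPK phosphatases Dusp1, Dusp4 and Dusp6, which switch off the kinases that induce them, made up 3 of 11 MAPK and cytokine feedback genes (27.3%). Dusp1 had signals of 2899, 109 and 111 in CNOT3KD MEFs, against 2574, 92.6 and 130.4 in control MEFs. In all 4 Act. D arrays its signal left lay between 3.60% and 5.07%. Dusp6, which acts on ERK in the cytoplasm, had 1926, 170.5 and 114 in CNOT3KD MEFs, against 2974, 289 and 485 in control MEFs. Dusp4, a nuclear phosphatase, had 2117, 225 and 135 in CNOT3KD MEFs, against 1062, 116 and 119 in control MEFs. Dusp4 and Dusp6 thus differed at 0 h in opposite directions. At 6 h Dusp4 had 10.6% left in CNOT3KD MEFs and 10.9% in control MEFs, and Dusp6 had 8.85% and 9.72%.

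Nfkbia encodes the inhibitor that holds NF-kB in the cytoplasm and is itself induced by NF-kB. At each of its 3 member probe sets the cultures differed at 0 h by at most 1.08-fold. The brightest had 4368, 493 and 434 in CNOT3KD MEFs, against 4351, 686 and 870.0 in control MEFs. The second had 1292, 56.0 and 30.6 in CNOT3KD MEFs, against 1307, 41.0 and 34.0 in control MEFs, and the third had 1103, 64.4 and 77.8 in CNOT3KD MEFs, against 1186, 112 and 182 in control MEFs. At 12 h in control MEFs 19.996%, 2.60% and 15.3% were left, so the 3 probe sets differed widely among themselves. Another Nfkbia probe set, with 2994 in CNOT3KD MEFs and 2676 in control MEFs at 0 h, was no member. It had 4.42% and 5.00% left in CNOT3KD MEFs, against 19.4% and 31.9% in control MEFs. A dim one kept between 38.3% and 98.2%. Irf2bp2, a co-repressor with the interferon regulatory factor IRF2, had 2662, 398 and 311 in CNOT3KD MEFs, against 2865, 283 and 209.8 in control MEFs. Together with the related Irf2bpl these were 3 of 8 genes of the NF-kB and inflammatory list (37.5%). Since Irf2bp2 and Irf2bpl are related to each other, this share depends on how the list was drawn up.

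Among BMP and TGF-beta genes the members were Smad6 and Ccn1, 2 of 19 (10.5%). Smad6, an inhibitor of BMP signalling, had 1951, 207 and 136 in CNOT3KD MEFs, against 1459, 80.02 and 29.2 in control MEFs. Cited2, which binds the co-activators CBP and p300 and limits hypoxia signalling, had 4001, 492 and 283 in CNOT3KD MEFs, against 4099, 170.2 and 192 in control MEFs. Both had more left in CNOT3KD MEFs at both times. The Notch, Hes and Wnt feedback list had 0 of 8 genes and the clock list 0 of 3, against 1.86% of all genes, so nothing was read from lists this small.

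Regulators of survival, adhesion and nutrient uptake were also present. Mcl1, an anti-apoptotic member of the BCL2 family, had 6915, 1237 and 804 in CNOT3KD MEFs, against 5821, 141 and 210.4 in control MEFs. Its 17.9% left at 6 h in CNOT3KD MEFs was near the limit of the rule, against 2.42% in control MEFs. Plk2, a stress-induced Polo-like kinase, had 4769, 433 and 465 in CNOT3KD MEFs, against 4994, 486 and 713 in control MEFs, and Gadd45g, a growth arrest gene, had 2944, 227 and 172 in CNOT3KD MEFs, against 3549, 199.9 and 300.3 in control MEFs. These were 3 of 18 genes of the cell cycle and p53 feedback list (16.7%). Irs1, the adaptor of the insulin receptor, was among the members with the least left in both cultures, with 3708, 160.2 and 114 in CNOT3KD MEFs, against 2958, 120.0 and 117 in control MEFs. Slc38a2, an amino acid transporter, had 4371, 456 and 197 in CNOT3KD MEFs, against 4796, 267 and 301 in control MEFs. Rnd3, which opposes actomyosin contraction, had 4401, 524 and 295 in CNOT3KD MEFs, against 3784, 51.5 and 109 in control MEFs.

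In a list of ubiquitin ligases and F-box genes, which does not hold every such gene, 4 of 15 had members (26.7%), namely Fbxo30, Kbtbd2, Siah1a and Trib2. Siah1a, a RING ubiquitin ligase, had 1414, 104 and 29.0 in CNOT3KD MEFs, against 1195, 86.3 and 141 in control MEFs. Its 2 other probe sets with a signal of at least 100 were no members and kept between 25.5% and 81.6%. Trib2, a pseudokinase that recruits a ubiquitin ligase, had 2337, 466 and 387 in CNOT3KD MEFs, against 2296, 212 and 208 in control MEFs, and its 16.6% was the highest value of any member at 12 h in CNOT3KD MEFs. Transcription and splicing regulators had members for 5 of 22 genes (22.7%). Arid5b, a DNA-binding co-activator, had 3613, 325 and 202 in CNOT3KD MEFs, against 3538, 193 and 259 in control MEFs. Clk1, a kinase of SR splicing proteins, had 2345, 252 and 219 in CNOT3KD MEFs, against 2126, 222 and 219 in control MEFs, so that its 4 percentages lay between 9.36% and 10.7%. Jmjd1c, of the Jumonji family of chromatin proteins, had 1483, 61.7 and 47.0 in CNOT3KD MEFs, against 1899.9, 89.5 and 107 in control MEFs.

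Of 22 mRNA decay adaptors and deadenylation genes, 2 had a member (9.09%), Btg1 and Tob2, while Cnot2 and Cnot11, subunits of the CCR4-NOT complex, were among the kept genes. Zinc finger genes whose symbol starts with Zfp or Zbtb formed the biggest group by number, 12 of 44 genes (27.3%), a grouping chosen after the values were seen. Their 13 probe sets had median 0 h signals of 934 in CNOT3KD MEFs and 1154 in control MEFs. Zfp503, a developmental repressor, had 2915, 193 and 174 in CNOT3KD MEFs, against 3092, 113 and 175 in control MEFs. At its second member probe set it had 1264, 39.1 and 12.7 in CNOT3KD MEFs, against 1101, 12.7 and 13.6 in control MEFs, and 3 of these 4 Act. D signals were under the 25th percentile of their array. Zfp518b had 2003, 309 and 171 in CNOT3KD MEFs, against 1691, 191 and 169.8 in control MEFs.

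Lists of housekeeping and structural genes had no members. The counts were 0 of 40 ribosomal protein genes, 0 of 23 oxidative phosphorylation genes, 0 of 16 fibroblast and matrix genes and 0 of 10 glycolysis genes. Of all 4793 genes 1.86% had a member, so counts of 0 in lists of these sizes are near that share and set these lists apart from no others. A probe set with at least 80% left at all 4 Act. D arrays was found for 38, 22, 14 and 6 of these genes, against 50.8% of all 4793 genes. Such a probe set was found for 0 of 15 genes of the immediate-early list, 0 of 8 Kruppel-like and 0 of 11 MAPK feedback genes. Other lists with members held some, with 6 of 19 homeobox and mesenchymal factors, 2 of 8 NF-kB and inflammatory genes, 5 of 22 decay adaptors, 4 of 18 cell cycle genes and 3 of 15 ubiquitin ligases.

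**Figure D3:**
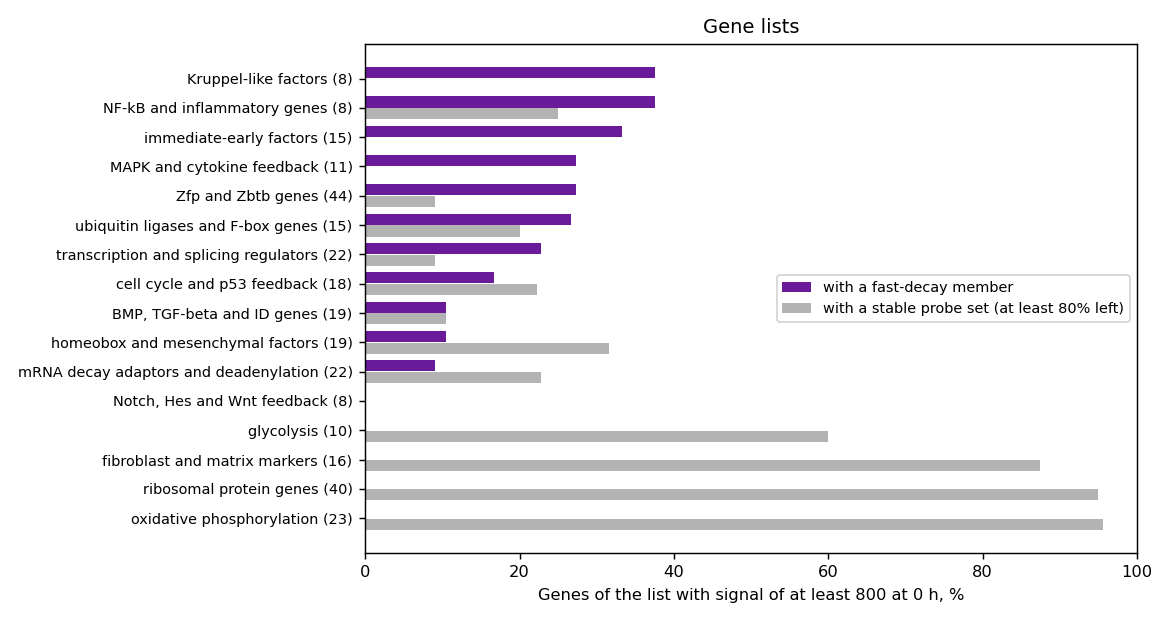
Percent of the genes in each list with a signal of at least 800 at 0 h (number in brackets) that had a member probe set (dark bars) or a probe set with at least 80% left at both times in both cultures (grey bars). The share with a member reaches 37.5% for Kruppel-like factors and is 0 for Notch, Hes and Wnt feedback genes, and 0 of 40 ribosomal protein genes had one while 95% had a stable probe set. Of all 4793 genes at that signal 1.86% had a member, so a count of 0 in lists of these sizes is near that share.

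Non-coding RNAs appeared among the members next to protein-coding genes. Neat1, the RNA scaffold of nuclear paraspeckles, had signals of 3161, 96.8 and 129.8 in CNOT3KD MEFs, against 2453, 161 and 410.5 in control MEFs. It was the only named gene with at least 2 times more left in control MEFs at both times, 6.57% and 16.7%, against 3.06% and 4.11% in CNOT3KD MEFs. Gas5, a host of small nucleolar RNAs, had 1351, 36.5 and 54.6 in CNOT3KD MEFs, against 1743, 97.0 and 88.7 in control MEFs at 1 of its member probe sets. Mir22hg, which was chosen after its values were seen, had 1371, 141 and 85.1 in CNOT3KD MEFs, against 2065, 212 and 316 in control MEFs. It is the host transcript of miR-22, whose mature strands are shown because loss of the host signal follows the precursor RNA only and not these products, which the arrays did not measure. The RefSeq sequences (GRCm38.p6, plus strand) lie at chr11:75463734-75463755 for the 5p and chr11:75463772-75463793 for the 3p strand, with the seed in capitals.
miR-22-5p: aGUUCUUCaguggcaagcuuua
miR-22-3p: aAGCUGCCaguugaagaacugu

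Within the members the decay in CNOT3KD and control MEFs differed for some genes. The log2 ratio of the fraction left, CNOT3KD over control averaged over both times, had a median of -0.036 and ranged between -2.12 and 2.52. At 6 h 80 of 119 members had more left in CNOT3KD MEFs, and at 12 h 38 did. The share of all probe sets at 800 or more with more left in CNOT3KD MEFs was not counted, so the change between the times was not read. The fraction left was at least 2 times higher in CNOT3KD MEFs at both times for 13 of 119 members, where 13% of all probe sets at 800 or more met this. It was at least 2 times higher in control MEFs at both times for 4 of 119 members, where 0.201% of all did. The other 102 members met neither. Since the rule caps the fraction left in both cultures, these counts describe the members and nothing was read from them.

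The 13 members came from 12 named genes and 1 unnamed probe set. Besides Snai2, Mcl1, Rnd3 and Foxc2 they included Usp42, a deubiquitinating enzyme, with 1393, 247 and 171 in CNOT3KD MEFs, against 1386, 74.5 and 23.7 in control MEFs. Npat, a co-activator of histone gene transcription, had 1115, 181 and 75.9 in CNOT3KD MEFs, against 1148, 26.2 and 35.7 in control MEFs. Fem1b, a substrate receptor of a cullin ubiquitin ligase, had 2235, 438 and 296 in CNOT3KD MEFs, against 3131, 151 and 86.1 in control MEFs. In all 3 genes the Act. D signals of CNOT3KD MEFs were above those of control MEFs, beside 0 h signals 1.01-fold higher (Usp42), 1.03-fold lower (Npat) and 1.40-fold lower (Fem1b) in CNOT3KD MEFs. Rnf146, a ubiquitin ligase that recognizes poly(ADP-ribose), had 2933, 541 and 279 in CNOT3KD MEFs, against 2742, 117 and 111 in control MEFs. Pnrc1, a co-regulator of nuclear receptors, had 2517, 392.3 and 143 in CNOT3KD MEFs, against 1685, 52.5 and 42.6 in control MEFs. Mn1, a transcriptional co-regulator, had 985, 148 and 94.7 in CNOT3KD MEFs, against 1206, 70.6 and 37.1 in control MEFs.

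At the opposite end were genes with more left in control MEFs, most of it at 12 h. For Luc7l2, a splicing factor of the U1 particle, 3.48% and 4.41% were left in CNOT3KD MEFs, against 6.25% and 16.2% in control MEFs. For Siah1a the values were 7.33% and 2.05% in CNOT3KD MEFs, against 7.22% and 11.8% in control MEFs. For Btg1 they were 4.71% and 2.63% in CNOT3KD MEFs, against 6.33% and 9.87% in control MEFs. Btg1 and Siah1a had a difference mainly at 12 h, where the control value was above its own 6 h value.

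The rule used the level at 0 h both for the minimum of 800 and as the denominator of the percentages left, so the fold at 0 h is not free of the selection and is given as a description. The median log2 fold of the members, CNOT3KD over control, was -0.11 (0.929-fold), against 0.013 over all probe sets at 800 or more and 0.20 over the 150 kept probe sets. More than 1.5-fold higher in CNOT3KD MEFs were 2 of 119 members, against 4.45% of all, and more than 1.5-fold lower were 14 of 119, against 4.73% of all. Of the kept probe sets 20 of 150 were higher and 5 of 150 were lower. Dividing each array by its ribosomal protein signal raised the log2 fold of all probe sets by 0.13, after which 5 of the 119 members were higher and 7 were lower. On that scale 8.62% of all probe sets at 800 or more were higher and 2.81% were lower. The surplus of lower over higher members was smaller in number there, beside a background with more higher than lower probe sets.

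The 2 higher members were Dusp4, 1.99-fold higher, and Atf7ip, a partner of a histone methyltransferase, with 1338, 172 and 134 in CNOT3KD MEFs, against 866, 35.2 and 109.7 in control MEFs. Among the 14 lower members the named genes were Ccn1, Dusp6, Gas5, Has2, Jun, Mir22hg, Rbm25, Zfp445 and Zfp871. The direction held for the member probe sets and not for each gene, since the brightest probe set of Ccn1 was 1.72-fold higher in CNOT3KD MEFs at 0 h and that of Rbm25 had a fold of 1.004. Zfp871 had 848, 108 and 80.9 in CNOT3KD MEFs, against 1721, 174 and 172 in control MEFs, which is 2.03-fold lower at 0 h. Has2, which makes the matrix sugar hyaluronan, had 806, 37.2 and 51.2 in CNOT3KD MEFs, against 1264, 68.0 and 90.6 in control MEFs. Rbm25, a splicing regulator, had 1187, 116 and 40.3 in CNOT3KD MEFs, against 2030.2, 306 and 195 in control MEFs, at its member probe set. Its brightest probe set was no member and had more left in CNOT3KD MEFs at both times. Has2 had 4.62% and 6.35% left in CNOT3KD MEFs, against 5.38% and 7.17% in control MEFs, beside a 0 h signal 1.57-fold lower in CNOT3KD MEFs.

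**Figure D4:**
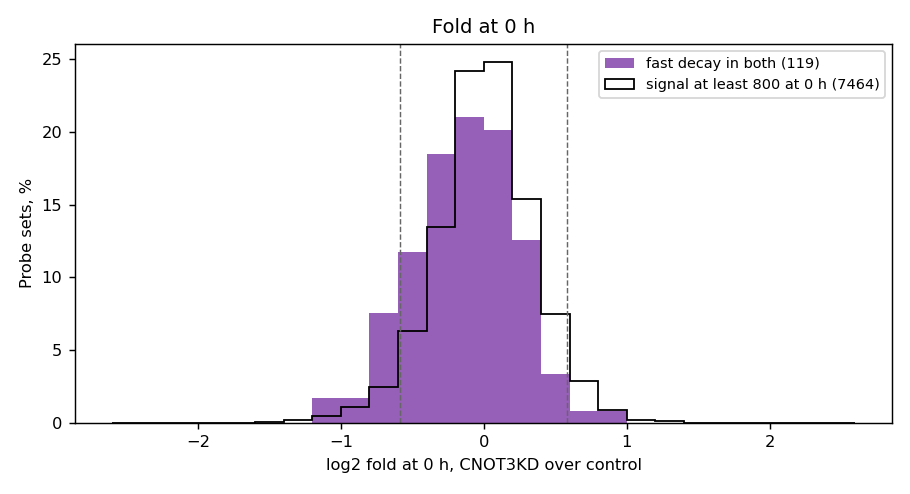
Distribution of the log2 fold at 0 h, CNOT3KD over control (x axis), for the 119 members (filled) and all 7464 probe sets with a signal of at least 800 (outline), as percent of probe sets (y axis), with dashed lines at 1.5-fold. The members sit slightly to the left, with 14 below the lower line and 2 above the upper one.

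Other probe sets of the member genes were read too, from the same arrays and often the same RNA. Of 139 such probe sets, 93 had a signal of at least 100 in both 0 h arrays. Over these 93 the medians left at 6 h and 12 h were 32.1% and 22.9% in CNOT3KD MEFs, and 20.8% and 27.6% in control MEFs. Of the 93, 28 reached 800 in both 0 h arrays and were no members because they failed the limit of 20%. The other 65 were below 800 in a 0 h array, so the rule had not judged their decay. They had medians of 24.7% and 16.8% left at 6 h and 12 h in CNOT3KD MEFs, and 20.8% and 28.1% in control MEFs. Over all 11551 probe sets of that signal range the medians were 86.9% and 82.1% in CNOT3KD MEFs, and 72.0% and 61.9% in control MEFs. At most 20% was left in all 4 Act. D arrays at 11 of the 65 (16.9%), against 3.51% of that range, and at most 50% at 46 of the 65 (70.8%), against 16.4%.

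The 11, named after their values were seen, belonged to Abl2, Fbxo30, Fem1c, Has2, Irf2bp2, Klf9, Luc7l2, Mllt10, Nrip1, Stox2 and Tiparp. For Has2 the other probe set had 571, 53.4 and 34.9 in CNOT3KD MEFs, against 913, 46.6 and 69.2 in control MEFs, and so was lower in CNOT3KD MEFs at 0 h as well, by 1.60-fold. For Nrip1, a co-repressor of nuclear receptors, the one that met the limit had between 2.82% and 8.58% left and the member between 3.43% and 4.71%, while a dimmer one had 23.1% and 26.9% left in CNOT3KD MEFs, against 6.79% and 49.2% in control MEFs. In 6 of the 51 genes with another probe set at 100 or more, each such probe set met the limit of 20%.

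Some genes were read quite differently by their other probe sets. The brightest probe set was the member for 79 of the 89 genes and was not for 10. Ccn1, a secreted matrix protein induced by growth factors, had 21694, 8085 and 6863 in CNOT3KD MEFs, against 12628, 232 and 379 in control MEFs at its brightest probe set. Its 2 member probe sets, which were dimmer, had at most 2.96% left in CNOT3KD MEFs, where the brightest had 37.3% and 31.6% left. In control MEFs the brightest kept 1.84% and 3.003% and the members at most 6.25%. A further Ccn1 probe set had 46.9% and 40.6% left in CNOT3KD MEFs, against 1.53% and 2.64% in control MEFs. The 5 other probe sets of Mcl1 kept between 22.9% and 51.0% in CNOT3KD MEFs and between 6.73% and 10.5% in control MEFs. Mcl1 and Ccn1 thus met the rule at some probe sets only, and at all others with a signal of at least 100 they had more left in CNOT3KD MEFs. The brightest probe set of Nup50 kept 89.0% and 75.6% in CNOT3KD MEFs, against 19.8% and 11.5% in control MEFs. That of Rbm25 kept 69.4% and 56.0% in CNOT3KD MEFs, against 37.1% and 27.6% in control MEFs. The brightest of Iffo2 also had more left in CNOT3KD MEFs at both times, while those of Jun, Zfp281, Gas5, Malat1 and Nisch had less.

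For Gas5, Luc7l2, Nisch and Malat1 the brightest probe set kept more than 50% in both cultures. The brightest of Gas5 had 7101, 7841 and 8954 in CNOT3KD MEFs, against 8451, 13981 and 19426 in control MEFs. The brightest of Luc7l2 kept 98.6% and 87.9% in CNOT3KD MEFs, against 97.0% and 95.2% in control MEFs, while its member and 1 dimmer probe set fell to 16.2% or less. Malat1, a nuclear non-coding RNA, and Nisch were picked once their values had been looked at. The brightest of Malat1 kept 58.3% and 51.7% in CNOT3KD MEFs, against 86.6% and 110.0% in control MEFs, while its second brightest kept 11.9% and 13.9% in CNOT3KD MEFs, against 39.6% and 70.6% in control MEFs. The brightest of Nisch kept 97.7% and 104% in CNOT3KD MEFs, against 146% and 160.1% in control MEFs. Over the 93 other probe sets 7 kept at least 80% in all 4 Act. D arrays. Where on the transcript each probe set lies was not analysed here.

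**Figure D5:**
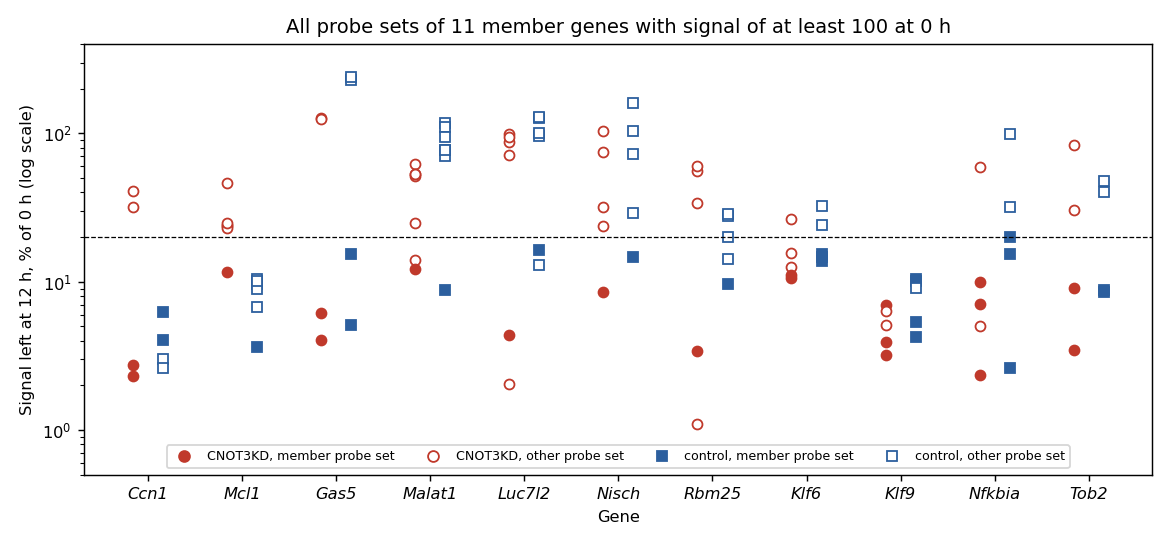
Percent of the 0 h signal left at 12 h (y axis, log scale) for all probe sets with a signal of at least 100 at 0 h of 11 member genes, chosen after their values were seen, with CNOT3KD MEFs as circles and control MEFs as squares, members filled and other probe sets open, and a dashed line at 20%. Other probe sets of Ccn1 and Mcl1 lie above the line in CNOT3KD MEFs and below it in control MEFs, and the brightest ones of Gas5, Luc7l2, Malat1 and Nisch lie above it in both.

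The 11 unnamed members had 0 h signals between 838 and 3345 in CNOT3KD MEFs and between 843 and 5206 in control MEFs. Their medians left were 7.55% and 5.86% in CNOT3KD MEFs and 6.31% and 6.76% in control MEFs. Probe sets whose suffix marks possible matches to several transcripts made up 13 of the 119 members, among them the brightest probe set of Snai2.

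Promoters of the members were read as a description, and whether these genes are induced together was not tested. RefSeq (GRCm38.p6) gave the 250 bases before and 50 bases after the gene start for 70 of the 89 genes, and 6 motifs were searched on both strands, none of which contains another. The cyclic AMP response element TGACGTCA was found in 4 of 70 member promoters (5.71%), those of Dusp1, Irf2bpl, Plk2 and Zbtb11, against 3.30% of 3943 promoters of genes at 800 or more and 1.88% of all 27025. The TATA motif TATAAA was found in 12.9% of member promoters, against 6.85% and 14.2%. The ETS motif CCGGAAG was found in 7.14%, against 22.1% and 9.12%, and in 28.2% of 103 promoters of the kept genes. The GC box GGGCGG was found in 75.7%, against 70.7% and 35.9%, the E-box CACGTG in 10.0%, against 11.6% and 7.24%, and the CCAAT box in 42.9%, against 38.6% and 37.9%. A match describes the letters in this window and is no sign of a bound factor.

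Shown here are promoters of Dusp1 and Plk2, with the response element in capitals, and of Btg1, the brightest member in CNOT3KD MEFs, with the TATA motif in capitals. They lie at chr17:26508423-26508722 on the minus strand (Dusp1), chr13:110394794-110395093 on the plus strand (Plk2) and chr10:96616751-96617050 on the plus strand (Btg1). The motifs start at positions -143, -62 and -26 relative to the gene start.
Dusp1: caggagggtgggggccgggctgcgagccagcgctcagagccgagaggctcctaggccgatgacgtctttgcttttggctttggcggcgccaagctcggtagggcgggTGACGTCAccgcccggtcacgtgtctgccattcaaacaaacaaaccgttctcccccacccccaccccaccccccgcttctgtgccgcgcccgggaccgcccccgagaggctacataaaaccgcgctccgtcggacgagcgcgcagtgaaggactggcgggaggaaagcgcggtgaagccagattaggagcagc
Plk2: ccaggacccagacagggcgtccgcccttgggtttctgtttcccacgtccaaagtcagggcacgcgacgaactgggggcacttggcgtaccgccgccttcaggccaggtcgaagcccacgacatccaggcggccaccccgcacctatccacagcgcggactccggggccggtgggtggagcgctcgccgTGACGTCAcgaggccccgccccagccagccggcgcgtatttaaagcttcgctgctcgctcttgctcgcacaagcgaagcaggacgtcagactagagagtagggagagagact
Btg1: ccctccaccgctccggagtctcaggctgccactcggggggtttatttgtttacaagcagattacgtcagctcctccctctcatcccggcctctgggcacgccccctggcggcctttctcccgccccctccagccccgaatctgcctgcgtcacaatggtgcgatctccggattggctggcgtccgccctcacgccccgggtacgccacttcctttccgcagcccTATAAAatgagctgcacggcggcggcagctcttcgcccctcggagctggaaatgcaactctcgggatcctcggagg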

How the data were processed

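Biotin-labelled cRNA from total RNA was hybridized to mouse GeneChips, 1 array for each of 6 conditions. The authors computed MAS5 intensity values per probe set, and the deposited values are linear and share a trimmed mean. The MAS5 version was not given in the sources used here, nor was its scaling target. The paper's methods name GeneSpring for analysis. The deposited table covers 45037 probe sets other than Affymetrix controls, and 0 further sample columns were left unused. The platform annotation gives 1 gene for 34945 probe sets, several for 932 and none for 9160.

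The percent left is the signal under Act. D over the 0 h signal of the same culture. Counts and medians were computed without any test, since each condition has 1 array. Genes with several probe sets were read at each of them, and at the brightest where 1 value is given. Genes were named by a rule: the 10 brightest, the 10 with the least left, the 10 at each end of the decay difference, the 5 at each end of the fold at 0 h, those with 3 or more member probe sets, up to 4 per gene list, the genes followed by qPCR and the 3 nearest to each threshold. The members and lists were chosen with earlier results of these data known. Ribosomal protein genes were found by symbol. The membership rule and the decay difference were tested on simulated data first, and the other counts were not. Python 3.11.15, pandas 2.3.3, numpy 2.4.6 and matplotlib 3.10.9 were used. Alternatives covered scaling, low values, both thresholds, probe set type and the unit of counting.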

Additional observations from a re-analysis of the deposited data

How the results depend on the processing

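The 119 members gave 81 after quantile normalization, of which 74 were shared, 174 after scaling to ribosomal protein signal, 119 with signals raised to the 25th percentile of their array, 106 without probe sets of suffix _x_at or _s_at, and 93 with the brightest probe set per gene. Limits of 15% and 25% left gave 77 and 167, and minima of 400 and 1600 gave 218 and 40, by construction of the thresholds.

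The 95% order-statistic interval of the main median was taken over the member probe sets, several of which share a gene. The rule had capped their percentages left, and the interval is not one over replicate arrays. It served only as a mark for listing values and carries no test. Values outside this interval, or counts past 1.5 times the main count, were these. After quantile normalization the median left at 12 h in CNOT3KD MEFs was 8.31%, 8 members were lower at 0 h, and 5 of 32 other probe sets below the minimum were called (at or under the percentage limit in all 4 Act. D arrays). After ribosomal protein scaling the medians left in control MEFs were 5.85% at 6 h and 5.47% at 12 h, the median decay difference was 0.51, all probe sets moving by 0.45, the median log2 fold at 0 h was 0.025, 6 members were higher and 14 lower (30% of these calls were higher, against 12.5% without scaling), and 31 other probe sets were called. At 15% the medians were 8.10% and 6.05% in CNOT3KD MEFs and 5.83% at 6 h in control MEFs, with 8 members lower and 5 of 35 other probe sets called. At 25% they were 13.0% and 8.94% in CNOT3KD MEFs, with 28 other probe sets called. At a minimum of 400, 37 members were lower. At 1600 the medians in control MEFs were 5.60% and 7.32%, the median log2 fold was 0.031, 0 members were higher and 2 lower, and 28 other probe sets were read. With the brightest probe set per gene 9 members were lower, and other probe sets could not be counted. Beyond the construction of the thresholds the cause was not tested. The median decay difference was positive under both scalings (0.029 after quantile normalization), at 25% (0.13) and at 1600 (0.10). The median fold was positive after ribosomal protein scaling and at 1600.

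No paired analysis was possible because each condition has 1 array. Signals near the low end of the arrays limit percentages of a few percent, and no spread between cultures was measured.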
